A study of Mus musculus with 2 samples.

Results

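The let-7 family with miR-98 comprised 10 microRNA genes of the 1973 genes counted in mouse intestine (strain B6NCrl) at embryonic day 14.5. The genes were chosen by name, as Mirlet7a-1, Mirlet7a-2, Mirlet7b, Mirlet7c-1, Mirlet7c-2, Mirlet7d, Mirlet7f-2, Mirlet7g, Mirlet7i and Mir98, and all 10 had at least 10 counts in each library. Small RNA was sequenced in 2 biological replicates of 1 group, with no treatment and no second condition named. The labels describe each sample as one pup's intestine and also as of pooled sex, and the replicates were collected on different days. The samples are labelled as intestine tissue and not as a single cell type, so that less let-7 per cell and fewer cells that express it cannot be told apart. Values are counts on the gene's own strand, scaled to a library total of 1000000 (CPM), as mean ± SD of the 2 libraries unless a library is named.

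Let-7 RNAs are cut from hairpin precursors by Drosha and Dicer, and the 5p arm guides Argonaute to messenger RNAs through its seed. The family was first described in the timing of larval development in Caenorhabditis elegans. In mammals it rises with differentiation and represses growth and embryonic genes such as Hmga2, Lin28a and Lin28b, while the LIN28 proteins block the maturation of let-7 precursors. In mouse intestinal epithelium, raised Lin28b is known to lower let-7 and promote growth. The messenger RNAs of Lin28a, Lin28b and Hmga2 were not analysed here.

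The mature 5p sequences are shown because they differ by few bases and some stand in 2 genes, which bears on how counts are assigned to a gene. They come from RefSeq on GRCm38.p6, with the seed, bases 2 to 8, in capitals.
let-7g-5p: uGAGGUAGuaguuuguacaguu
let-7i-5p: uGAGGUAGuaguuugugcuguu
let-7d-5p: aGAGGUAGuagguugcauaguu
miR-98-5p: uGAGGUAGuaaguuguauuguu
let-7b-5p: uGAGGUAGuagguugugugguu
let-7f-5p: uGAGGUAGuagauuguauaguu
let-7a-5p: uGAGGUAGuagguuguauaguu
let-7c-5p: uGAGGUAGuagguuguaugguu
let-7e-5p: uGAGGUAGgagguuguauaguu

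All of these are 22 bases long and share the seed GAGGUAG, so by seed the family is a single group. Counting from 1 at the 5′ end of let-7a-5p, let-7c-5p differs from it by A19G alone, let-7f-5p by G12A and let-7e-5p by U9G. Let-7b-5p carries A17G and A19G, miR-98-5p G11A and A19U, let-7d-5p U1A and U16C, and let-7g-5p G12U and U18C. Let-7i-5p is the furthest from let-7a-5p, with G12U, A17G, U18C and A19U. Let-7g-5p and let-7i-5p are alike over their first 16 bases, and let-7a-5p and let-7c-5p over their first 18.

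The sequences of let-7a-5p, let-7c-5p and let-7f-5p each stand in 2 genes, and the other 6 in 1 gene each. Mirlet7a-1 shares its 5p arm with Mirlet7a-2, Mirlet7c-1 with Mirlet7c-2, and Mirlet7f-2 with Mirlet7f-1. The 3p arms of Mirlet7a-1 and Mirlet7c-2 are also identical, so that neither gene has an arm of its own, while Mirlet7a-2, Mirlet7c-1 and Mirlet7f-2 each have their own 3p arm. The 3p arms of the members with copies are given here to show this.
let-7a-1-3p: cuauacaaucuacugucuuucc
let-7c-2-3p: cuauacaaucuacugucuuucc
let-7a-2-3p: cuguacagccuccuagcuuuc
let-7c-1-3p: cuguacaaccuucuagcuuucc
let-7f-2-3p: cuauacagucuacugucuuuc

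Reads with several alignments stand in a row of their own in the tables, at 26.5% of the reads in replicate 1 and 26.6% in replicate 2. How many of them were let-7 reads cannot be told from the tables. A read that aligns to both copies of a 5p arm would fall in that row and in neither gene. Counts of the 5 members whose 5p arm has a second copy can therefore be too low by an unknown amount. They are uncertain, and are given as counted. The tables do not divide a gene's counts between its 5p and 3p arms.

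The libraries held 15090126 and 3903472 counts on the gene's strand in replicates 1 and 2, a 3.87-fold difference in depth. Markers of epithelium and of smooth muscle were present. The epithelial genes Mir192, Mir194-1, Mir194-2, Mir215, Mir200b, Mir200c, Mir429 and Mir141 were all detected. They summed to 4.30% and 5.30% of the counts in replicates 1 and 2, and the smooth muscle pair Mir143 and Mir145a to 17.2% and 15.0%. The endothelial gene Mir126a took 2.35% and 2.42%. A pancreatic list, Mir375, Mir217, Mir216a and Mir216b, took 0.350% and 0.807%, with 99.8% of it in Mir375, which is also known from endocrine cells of the intestine. The other lists were lower. The liver gene Mir122 took 0.00398% and 0.00510%, 2 erythroid genes 0.0255% and 0.0402%, 2 leukocyte genes measured of 3 listed 0.0392% and 0.0488%, and 4 striated muscle genes measured of 5 listed 0.00109% and 0.000948%. Of 5 neuronal genes measured of 6 listed, Mir9-3 had 80 and 30 counts in replicates 1 and 2, or 5.30 and 7.69 CPM. Mir124a-1 had 1 count in replicate 1 and none in replicate 2, and Mir124a-2, Mir124a-3 and Mir9-2 were at 0 in both libraries.

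The let-7 family took 7.26% of the counts in replicate 1 (95% Wilson interval 7.25 to 7.27%) and 7.90% in replicate 2 (7.87 to 7.93%). These intervals cover counting error alone, and PCR copies may have been counted as reads. The libraries lay further apart than the intervals reach. As counted, the sum rested on few genes. Mirlet7g and Mirlet7i together held 79.9% of the family's counts in replicate 1 and 79.1% in replicate 2, and with Mirlet7d and Mir98 they held 96.3% and 96.0%. The 5 members whose 5p sequence stands in 1 gene held 98.1 ± 0.164% of the family's counts, and the 5 with a second copy 1.94 ± 0.164%. Reads with several alignments are in neither share, so these shares can understate the members with a second copy.

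**Figure D1:**
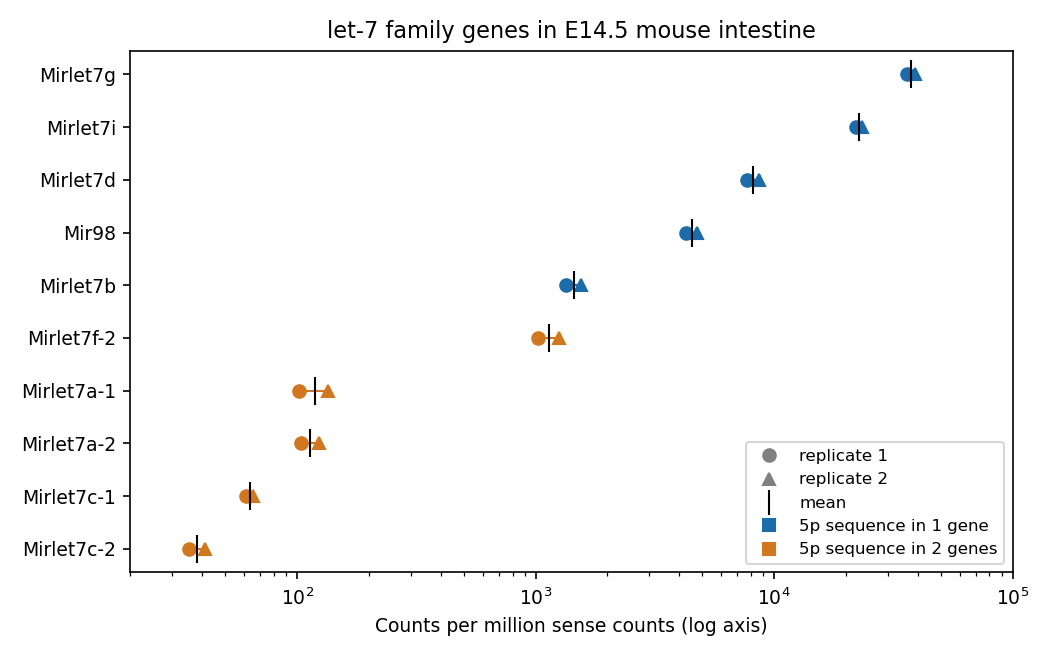
Level of each let-7 family gene in CPM (x axis, log scale), with a circle for replicate 1, a triangle for replicate 2 and a bar for their mean; blue marks genes whose 5p sequence stands in 1 gene and orange those where it stands in 2. Each blue gene lies above each orange one, between a mean of 37548 CPM for Mirlet7g and 38.2 CPM for Mirlet7c-2.

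As counted, Mirlet7g was the most abundant member. This gene (ENSMUSG00000065440.1; GRCm38 chromosome 9, 106178840 to 106178927, plus strand) lies in an intron of Wdr82, which encodes a subunit of histone methyltransferase complexes. It had 35988 and 39108 CPM in replicates 1 and 2, ranking 5th and 4th of all genes. Mirlet7i (ENSMUSG00000065406.2; chromosome 10, 122985640 to 122985724, minus strand), in an exon of the transcribed pseudogene D630033A02Rik, had 22002 and 23339 CPM in replicates 1 and 2, ranking 12th and 13th. Both libraries thus had Mirlet7g above Mirlet7i, by 1.64-fold in replicate 1 and 1.68-fold in replicate 2.

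Mirlet7d and Mir98 formed the next step of the order. Mirlet7d (chromosome 13, 48536012 to 48536114, minus strand) had 7695 and 8627 CPM in replicates 1 and 2. Mir98 (chromosome X, 151913214 to 151913321, plus strand) had 4269 and 4742 CPM. Mir98 carries another name but the let-7 seed, and its level lay between those of Mirlet7d and Mirlet7b, with no overlap between the libraries' values of these genes. Mirlet7b (chromosome 15, 85707319 to 85707403, plus strand) had 1338 and 1550 CPM in replicates 1 and 2, the lowest among members with a 5p sequence of their own.

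Among the members with a second copy, Mirlet7f-2 (chromosome X, 151912346 to 151912428, plus strand) stood well above the rest, with 1021 CPM in replicate 1 and 1259 CPM in replicate 2. Mirlet7a-1 (chromosome 13, 48538179 to 48538272, minus strand) had 102 and 135 CPM. Mirlet7a-2 (chromosome 9, 41536716 to 41536811, plus strand) had 104 and 123 CPM. The values of the let-7a pair overlapped, with Mirlet7a-2 ahead in replicate 1 and Mirlet7a-1 in replicate 2, so they have no order.

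Mirlet7c-1 (chromosome 16, 77599657 to 77599750, plus strand) had 61.2 and 65.3 CPM in replicates 1 and 2. Mirlet7c-2 (chromosome 15, 85706603 to 85706697, plus strand) was the lowest member, with 35.3 CPM from 533 counts in replicate 1 (95% Wilson interval 32.4 to 38.4 CPM) and 41.0 CPM from 160 counts in replicate 2 (35.1 to 47.9 CPM). Ordered by mean level, 8 of the 9 pairs of neighbouring members had values that did not overlap between the libraries, the exception being the let-7a pair. The whole range, Mirlet7g over Mirlet7c-2, was 984-fold, and its lower end is uncertain because both arms of Mirlet7c-2 have a copy elsewhere.

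**Figure D2:**
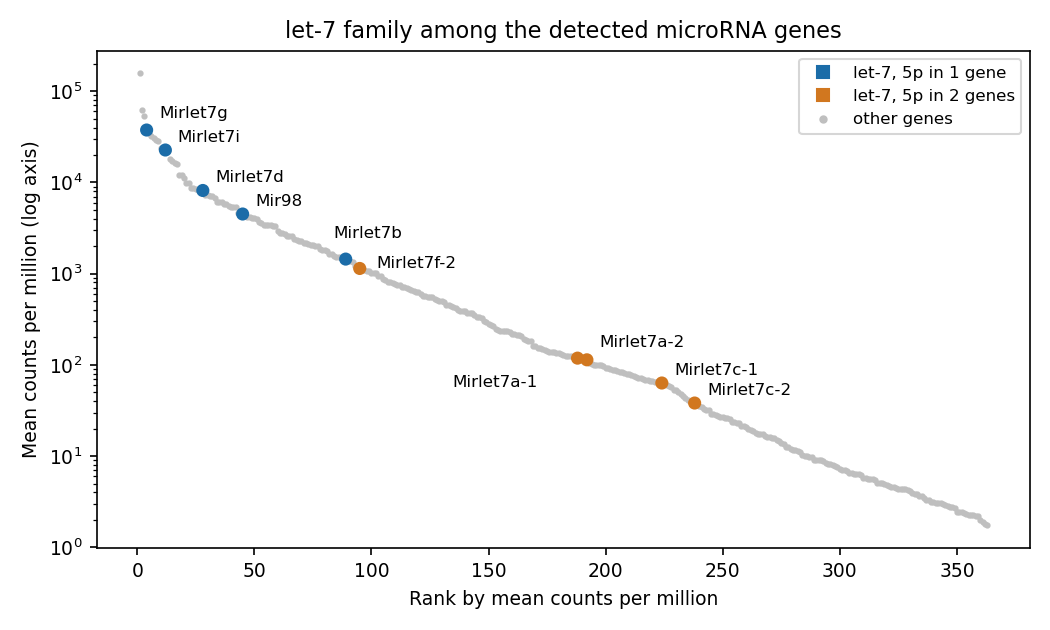
Mean level of every gene with at least 10 counts in each library (y axis, CPM, log scale) against its rank, with let-7 family genes in blue (5p sequence in 1 gene) or orange (in 2 genes) and other genes in grey. Mirlet7g and Mirlet7i lie among the leading genes, at 37548 and 22671 CPM, while the let-7a and let-7c genes lie far down the order, at 38.2 to 119 CPM.

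The 5 members with a second copy of their 5p sequence had a median level of 114 CPM and the 5 without one 8161 CPM. Over the whole table, members included, the medians of genes with and without a shared mature sequence, 5p or 3p, lay in the same order but closer together. Of the genes with at least 10 counts in each library and a mature sequence in RefSeq, 285 had no mature sequence in common with another gene, with a median level of 160 CPM, and 31.9% of them reached 1000 CPM. The 49 genes with a mature sequence in common with another gene had a median of 64.9 CPM, and 12.2% of them reached 1000 CPM. This is a description of the table, as the genes also differ in origin and function.

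The family's hairpins also differ in a short loop motif. GGAG is a motif through which LIN28 is known to bind let-7 precursors, read here on the transcribed strand between the 5p and 3p arms. Binding was not measured, and a hairpin without GGAG is not thereby shown to lack it. The motif was found there in 7 of the 10 members and was missing from Mirlet7b, Mirlet7c-2 and Mir98. Anywhere in the hairpin, GGAG stands in 7 of the 10 members and in 44.5% of the 1005 mouse hairpins in RefSeq. A hairpin with the motif, in capitals, and a pair without it are shown for comparison.
Mirlet7g hairpin: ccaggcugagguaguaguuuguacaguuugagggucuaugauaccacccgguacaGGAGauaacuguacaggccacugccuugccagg
Mirlet7b hairpin: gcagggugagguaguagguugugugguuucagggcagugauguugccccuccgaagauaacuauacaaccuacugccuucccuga
Mir98 hairpin: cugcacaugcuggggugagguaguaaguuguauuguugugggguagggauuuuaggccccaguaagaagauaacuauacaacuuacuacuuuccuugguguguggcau

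The members with GGAG between the arms held 92.1 ± 0.175% of the family's counts. Among members with a 5p sequence of their own, the 3 with the motif, Mirlet7g, Mirlet7i and Mirlet7d, had mean levels of 8161 to 37548 CPM. The 2 without it, Mir98 and Mirlet7b, had 4505 and 1444 CPM. Mirlet7e, which is not among the members, also has GGAG between the arms and a 5p sequence of its own. Counts at its place, on the strand opposite the predicted gene Gm25927, averaged 4475 CPM, close to the level of Mir98. The levels of these few genes at separate loci are not a test of the motif.

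Most let-7 genes lie beside other microRNA genes on the same strand, and neighbours of this kind are usually cut from one primary transcript. Levels within such loci were apart wherever a member with a 5p sequence of its own stood beside one with a second copy. On chromosome 13 Mirlet7d and Mirlet7a-1, both in exons of the long non-coding RNA 6720427I07Rik, lie 2064 bases apart. Mirlet7d exceeded Mirlet7a-1 on average 69.4-fold, by 6.23 on the log2 scale in replicate 1 and by 6.00 in replicate 2. On chromosome 15 Mirlet7b and Mirlet7c-2, both in exons of Lncppara, lie 621 bases apart, and their log2 ratio was 5.24 in each library, or 37.9-fold. On chromosome X Mir98 and Mirlet7f-2, both in introns of the ubiquitin ligase gene Huwe1, lie 785 bases apart, with log2 ratios of 2.06 and 1.91, on average 3.97-fold. The 3 ratios kept their sign in both libraries and were far larger than their differences of 0.23, 0.0030 and 0.15 between the libraries, but each sets a gene with its own 5p sequence against one without.

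Other members lie beside genes of the miR-99/100 and miR-125 families. MiR-125 is the vertebrate counterpart of lin-4, which acts with let-7 in the timing of development in Caenorhabditis elegans. Mirlet7c-1 lies 656 bases from Mir99a in an intron of Mir99ahg, and its log2 ratio to Mir99a was -8.91 and -8.77 in replicates 1 and 2. Mirlet7a-2 lies 5211 bases from Mir100 in introns of 3110039I08Rik and Gm49317, and its log2 ratio to Mir100 was -6.47 and -6.07 in the same order. The partners Mir99a and Mir100, with sequences of their own, averaged 28946 and 8767 CPM.

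Mirlet7e, the let-7 gene of the chromosome 17 locus, had no row of its own, as was the case for Mirlet7f-1 of chromosome 13. The tables instead hold predicted genes on the opposite strand at these places, Gm25927 (chromosome 17, 17830343 to 17830459, minus strand) and Gm24111 (chromosome 13, 48537825 to 48537921, plus strand). Gm25927 had no count on its own strand and 65654 and 17951 counts on the opposite one in replicates 1 and 2. On the scale of the other genes these opposite-strand counts came to 4351 and 4599 CPM, close to the 4269 and 4742 CPM of Mir98. Let-7e-5p stands in 1 gene. The opposite-strand level was below that of the neighbour Mir99b in both libraries, with log2 ratios of -1.96 and -1.89, and slightly above that of Mir125a, with 0.14 and 0.13.

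Gm24111 had 1 count on its own strand in replicate 1 and none in replicate 2, and 1134 and 396 counts on the opposite strand. These came to 75.1 CPM in replicate 1 (95% Wilson interval 70.9 to 79.7) and 101 CPM in replicate 2 (91.9 to 112), below the neighbouring Mirlet7a-1 in both libraries, with log2 ratios of -0.44 and -0.41, and far under Mirlet7d. Let-7f-5p stands in 2 genes, so the level at Mirlet7f-1 is uncertain in the same way as that of Mirlet7f-2. The members themselves had no opposite-strand counts except for 3 at Mirlet7b in replicate 1.

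**Figure D3:**
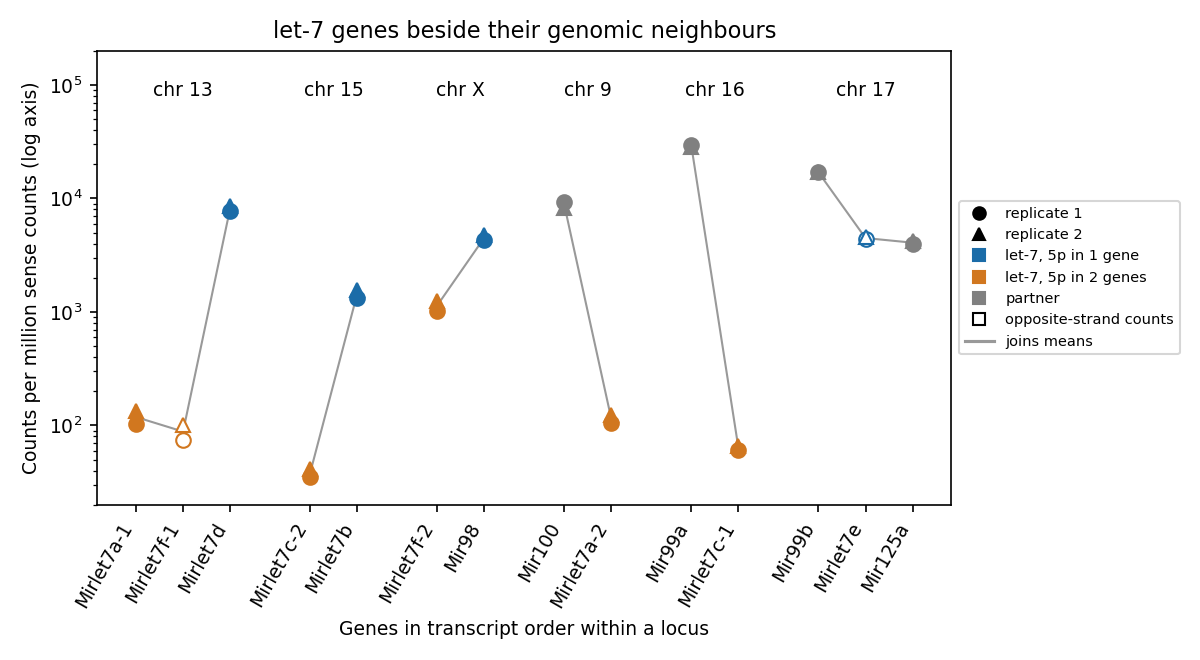
Levels at 6 loci where let-7 genes lie beside other microRNA genes (y axis, CPM, log scale), with genes in transcript order, circles for replicate 1, triangles for replicate 2 and lines joining means. Open symbols are counts opposite Gm24111 and Gm25927, at the places of Mirlet7f-1 and Mirlet7e; orange genes, whose 5p sequence stands in 2 genes, lie under their blue or grey neighbours at each locus that has them.

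Summed over genes, the let-7 family exceeded a list of 6 miR-99/100 and miR-125 genes at let-7 loci, Mir99a, Mir99b, Mir100, Mir125a, Mir125b-1 and Mir125b-2. Of these, Mir99a and Mir100 lie within 10 kb of a member. Mir99b and Mir125a lie beside Mirlet7e, which is not in the sum, while Mir125b-1 lies 45.1 kb from Mirlet7a-2 and Mir125b-2 46.5 kb from Mirlet7c-1, each within a host gene of that member. On average the excess was 1.27-fold, at 0.26 on the log2 scale in replicate 1 and at 0.42 in replicate 2, with a difference of 0.16 between the libraries. Mir125b-1 and Mir125b-2 have a mature sequence that also stands in another gene, so both sums can lack multiply aligned reads. Without genes of shared mature sequence the mean log2 ratio was 0.338, against 0.342 with them, which does not recover such reads. Mirlet7g made up 49.5% of the let-7 counts and Mir99a 48.4% of that list's counts, so that both lists drew about equally on their leading gene. The miR-30 family, a broadly expressed family with several genes, leaned more on its leading gene, with 64.8% of its counts in Mir30e. The let-7 family exceeded the miR-30 family 2.21-fold, at 1.16 on the log2 scale in replicate 1 and at 1.13 in replicate 2. The sums of these families can also lack multiply aligned reads, by an unknown amount. No test over 2 libraries was run on these ratios.

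The genes most like the leading members in level over the 2 libraries, by distance in log2(CPM + 1), were Mir26b and Mir10b for Mirlet7g, at distances of 0.31 and 0.35, and Mir30e and Mir126a for Mirlet7i, at 0.06 and 0.11. Mir30e had 21047 and 23399 CPM in replicates 1 and 2, and Mir126a, known from endothelium, 23478 and 24174 CPM. With 2 libraries this measure says little beyond a similar abundance.

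All 10 members had lower CPM in replicate 1 than in replicate 2, although Mirlet7i was 0.0077 higher on the log2 scale in replicate 1 with DESeq2 size factors, where the other 9 stayed lower. Of the 363 genes with at least 10 counts in each library 225 were lower in replicate 1, as were 68 of the 102 genes of at least 1000 CPM. The members' differences were small. Log2 of replicate 1 over replicate 2 ranged between -0.40 for Mirlet7a-1 and -0.09 for Mirlet7i, with a median of -0.19 over the members, against -0.06 over the 363 genes tested and -0.07 over the 102 genes of at least 1000 CPM. A two-sided exact binomial test of each gene's counts against the ratio of library totals, with Benjamini-Hochberg adjustment over the 363 genes, called 8 members lower in replicate 1 and none higher, with exact adjusted p-values up to 0.00538 for Mirlet7a-2. Over all genes tested it called 43.8% in either direction and 29.8% lower in replicate 1. Of the 102 genes of at least 1000 CPM it called 63 lower in replicate 1 and 27 higher. Calls were thus more common at high levels, where several members lie. With TMM or DESeq2 size factors in place of the totals 6 members passed, as Mirlet7i and Mirlet7a-2 did not; the exact adjusted p of Mirlet7i was then 0.758 and 0.262. Over all genes tested 39.1% were called with TMM and 39.7% with DESeq2 size factors. This test compares these libraries and no condition.

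Mirlet7g (log2 -0.12, 95% counting interval -0.13 to -0.11) and Mirlet7i (-0.09, interval -0.10 to -0.07) passed the test at differences under the median absolute difference of 0.15 over all genes tested. The members furthest apart were Mirlet7a-1 (-0.40, interval -0.54 to -0.25) and Mirlet7f-2 (-0.30, interval -0.35 to -0.26), both with a second copy of their 5p arm. Mirlet7c-1 (-0.09) and Mirlet7c-2 (-0.21) did not pass, with exact adjusted p = 0.489 and 0.181 and counting intervals of -0.30 to 0.11 and -0.47 to 0.05. No member reached 0.73, the 95th percentile of absolute differences over all genes tested.

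The epithelial marker list was also lower in replicate 1, at 4.30% of the counts against 5.30% in replicate 2, with a median log2 difference of -0.42 over its 8 genes. All 8 were called lower, also with TMM and DESeq2 size factors. The 3 pancreatic genes with at least 10 counts in each library were called lower too, with a median of -1.20, and of -1.12 and -1.11 under those scalings. The medians of the erythroid and leukocyte lists were -0.50 and -0.29, with 1 of 2 genes called lower in each under every one of these scalings. Mir122 differed by -0.36 and was called lower, but not with TMM or DESeq2 size factors. The smooth muscle genes differed by 0.20 for Mir143, which was called higher, and by -0.01 for Mir145a, which was not called. Mir126a of endothelium differed by -0.04 and was called lower. With TMM and DESeq2 size factors it differed by 0.04 and 0.05 and was called higher. The neuronal Mir9-3 (-0.54) and the striated muscle Mir206 (0.23) were not called. The part of these lists in the let-7 difference was not tested. The miR-99/100 and miR-125 genes had a median difference of -0.01, with 1 of 6 called lower in replicate 1 and 2 called higher, which became 0.07 with TMM and 0.08 with DESeq2 size factors, with none called lower and 3 called higher under either. The miR-30 family had a median difference of -0.15, with 4 of 6 called lower and none higher, and -0.06 and -0.05 under those scalings with the same number of calls. The opposite-strand counts at Mirlet7e differed by -0.08, which became 0.0026 with TMM and 0.013 with DESeq2 size factors. Those at Mirlet7f-1 differed by -0.43, and by -0.35 and -0.34 under those scalings.

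**Figure D4:**
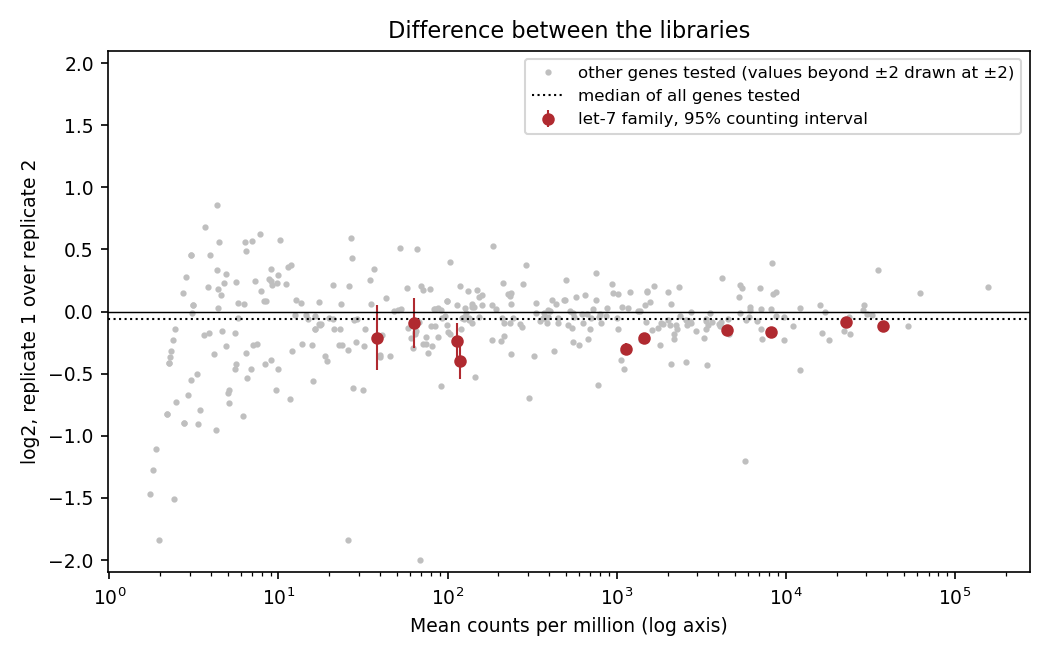
Log2 of replicate 1 over replicate 2 (y axis) against mean level (x axis, CPM, log scale) for the 363 genes tested, with let-7 family genes in red with 95% counting intervals, other genes in grey and the median of all genes tested as a dotted line. The 10 red points lie between -0.40 and -0.09, within the spread of the grey points at like levels.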

How the data were processed

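Small RNA libraries from 2 intestine samples at embryonic day 14.5 were analysed. The authors deposited raw read counts per gene in 3 columns, taken from the values to be either strand, the gene's strand and its opposite, since the first is the sum of the others in every gene row. Per the files that accompany the tables, reads were aligned to mm10 and counted on GENCODE M4; the sources used here do not name the aligner, trimming or counter. Rows for unaligned (12.4% and 13.8% in replicates 1 and 2), multiply aligned (26.5% and 26.6%) and unassigned reads (2.20% and 2.10%) entered no total.

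Counts on the gene's strand were scaled to 1000000 per library. A count of 0 allows up to 0.199 and 0.769 CPM in replicates 1 and 2 (a limit of 3 counts). Symbols and positions came from GENCODE M21 on GRCm38, which held 1894 of 1973 identifiers; 7 of the 10 members had the same version and 3 another. Sequences came from RefSeq on GRCm38.p6, and a sequence counted as shared when another gene's hairpin or mature RNA held it whole. Clusters are same-strand genes within 10 kb. Genes with at least 10 counts in each library were compared between libraries with an exact binomial test (scipy 1.17.1), tested on simulated data, at an adjusted p of 0.05. The simulated counts varied by counting error alone, so that check does not cover the spread between animals or libraries. Intervals are 95%. Alternatives used TMM (edgeR 4.0.16), DESeq2 1.42.0 size factors, other count minimums, both strands, another total and no shared sequences. The genes named are all members, their neighbours, miR-99/100 and miR-125 genes at let-7 loci, genes of related seed, the miR-30 family and the 2 genes nearest in level to each of the 2 leading members. Members, lists and settings were chosen with earlier results of these data known. The p-values measure the spread of reads, not of animals.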

Additional observations from a re-analysis of the deposited data

Results flagged for a closer look

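Counts on the opposite strand lay outside the main measurement and exceeded the limit that a count of 0 allows, 0.199 and 0.769 CPM in replicates 1 and 2. At Gm25927, where Mirlet7e is annotated on the opposite strand, they came to 4351 and 4599 CPM in replicates 1 and 2. They made up 100% of that gene's counts in both libraries and 14.6% and 14.4% of all opposite-strand counts. At Gm24111, where Mirlet7f-1 is annotated, they came to 75.1 and 101 CPM in replicates 1 and 2.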

How the results depend on the processing

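The family's share of 7.58% became 4.28% with all reads in the table as the total, and 8.04% with the counts opposite Gm25927 and Gm24111 added, an alternative chosen after seeing the data. The share of Mirlet7g and Mirlet7i within the family, 79.5%, became 81.0% without members of shared mature sequence and 74.9% with those opposite-strand counts. Leaving out each replicate gave 7.26 to 7.90% and 79.1 to 79.9%. TMM moved the median log2 difference of all genes tested by 0.08 and DESeq2 size factors by 0.09. The members' median was then -0.11 and -0.10, with 6 members and 39.1% and 39.7% of all genes tested called, as Mirlet7i and Mirlet7a-2 no longer passed. The other alternatives moved the shares by less than the SD of the 2 libraries. The same held for the ratios within clusters and the ratio to the miR-99/100 and miR-125 genes. Leaving out a replicate could not move a value beyond that SD, which comes from the same 2 libraries. Every alternative moved the members' median by less than the SD over members, 0.098, and no count of calls changed by over 1.5 times. No paired analysis was possible because the design holds 1 group. Arms of a hairpin and multiply aligned reads cannot be resolved from gene counts, which limits the levels of let-7a, let-7c and let-7f.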

Other observations

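Some genes outside the family carry the let-7 seed or one close to it. Mir7k, whose mature RNA let-7k has the seed GAGGUAG, and Mir1961, with the same seed, had no count in either library, which allows up to 0.199 and 0.769 CPM in replicates 1 and 2. Mir202, with a seed that differs by G8U, had 2 counts in replicate 1 and none in replicate 2. Mir7j, whose mature RNA is let-7j, had 531 and 175 counts, or 35.2 and 44.8 CPM, in replicates 1 and 2, close to the 533 and 160 counts of the lowest member Mirlet7c-2. Over the 22 bases of let-7i-5p, let-7j differs from it by G8U alone, counted from the 5′ end of let-7i-5p, as the sequences show with bases 2 to 8 in capitals.
let-7j: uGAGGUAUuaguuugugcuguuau
let-7i-5p: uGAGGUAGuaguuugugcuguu
Counts at Mir7j made up 0.160% of the sum of Mir7j and Mirlet7i in replicate 1 (95% Wilson interval 0.147 to 0.174%) and 0.192% in replicate 2 (0.165 to 0.222%).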
